A study of Homo sapiens with 9 samples.

Results

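The comparison of the HA coating with bare alloy was read gene by gene from 6 of the 9 RNA-seq libraries of the series, 3 per surface. Of the 36385 genes in the deposited count table, 20117 passed edgeR's filter on low counts in these 6 libraries, and each of them entered the test. The cells were MG-63, an established line from a human osteosarcoma that stands in for osteoblasts. Bare alloy was Ti6Al4V, a titanium alloy of dental and orthopaedic implants, and the HA coating was boronized Ti6Al4V carrying HA. The surfaces thus differed in both boronizing and HA, which this comparison cannot tell apart. Changes given as "on the HA coating" belong to that surface as a whole. Both groups spent 7 days in the same osteogenic medium, with beta-glycerophosphate (10 mM), ascorbic acid and dexamethasone (100 nM), and both carried the same batch label. The other 3 libraries, on alloy with TiB2, entered 1 alternative fit and nothing else. No label says whether the libraries of a surface came from separate cultures, so a p-value here weighs a difference only against the spread of these libraries, part of which may be technical. The series title names osteogenic differentiation on the boronized HA surface as its question.

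Osteoblasts build bone by secreting a collagen-rich matrix and then depositing mineral in it. They also talk to immune cells and to the osteoclasts that remove bone, through cytokines, chemokines, prostaglandins and a decoy receptor called osteoprotegerin. NF-kB is a family of transcription factors that turns on many of those inflammatory genes. A dividing cell needs, in addition, new DNA, new membrane lipid and more protein synthesis and turnover. The comparison below follows these roles across the whole transcriptome, through the GO, KEGG and Reactome entries that the authors deposited for each gene.

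The cell type label, osteosarcoma with an epithelial-like form, was set against marker genes. VIM, the intermediate filament of mesenchymal cells, lay at 5760, 6300 and 7130 CPM (the count scaled to a common library size by the TMM method) on bare alloy and at 4150, 2740 and 4890 on the HA coating. CDH1, the epithelial cadherin, lay between 0.0958 and 0.545 CPM, and OVOL1, another epithelial gene, had no counts. The 8 epithelial markers together came to 11.8 to 15.1 CPM on bare alloy and 11.9 to 14 on the HA coating, against 16100 to 17700 and 5360 to 9140 for the 10 mesenchymal and osteoblast markers. Mesenchymal markers thus far outweighed epithelial ones on both surfaces, while IBSP, a marker of mature osteoblasts, had no counts in any library. VIM, COL1A1, COL1A2 and SPARC made up nearly all of the mesenchymal and osteoblast sum. Of the 8 tested markers of that list, 2 were called higher and 3 lower by edgeR. THY1 was among those higher, at 46.4, 36.4 and 40.6 CPM on bare alloy and 87, 63.8 and 82.7 on the HA coating. In bulk RNA, fewer cells of a type and less RNA per cell cannot be told apart, and this holds for all the rises and falls below.

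The libraries held 58464306 to 72542556 counts, and some stood apart. Ribosomal DNA rows took 6.485% of the counts of bare alloy replicate 1, 1.071% and 0.622% of the other bare libraries and 0.091% to 0.205% of the HA libraries. T cell markers came to 5.96 and 6.11 CPM in bare alloy replicates 2 and 3 and to 0.0546 to 0.479 in the other 4 libraries. The median squared difference between HA libraries was 28.6 to 41.8 times the counting variance, and between bare libraries 10.1 to 13.4 times. Between HA and bare libraries it was 28.9 to 64.8 times. HA replicate 1 stood at 28.9 to 31.5 from the bare libraries, 28.6 from HA replicate 2 and 41.8 from HA replicate 3. It was thus about as far from bare alloy as from HA replicate 2. GC content and gene length together accounted for 21.3% and 21% of the deviation of HA replicates 2 and 3 and for at most 11.8% in the other libraries. No 2 libraries were alike enough to be 1 library deposited again.

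On the HA coating 1009 genes rose, 5.02% of those tested, and 981 fell, 4.88% (edgeR adjusted p under 0.05). The rises were led by secreted inflammatory genes, followed by genes of DNA replication, sterol synthesis and the proteasome, and the falls by genes of the extracellular matrix, of cell adhesion and of nerve and axon terms. The median called rise was 1.04 on the log2 scale and the median called fall -1.28, while the median of all genes tested was 0.02. A change past 2-fold was seen in 541 rises and 691 falls, and past 4-fold in 139 and 190. The HA group stood clear of the bare group in 1008 of the 1009 rises and 980 of the 981 falls, and in 34.6% of all genes tested. In the plot of fold change against level, the called genes lay at all levels, from below 1 CPM to over 1000 CPM.

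**Figure D1:**
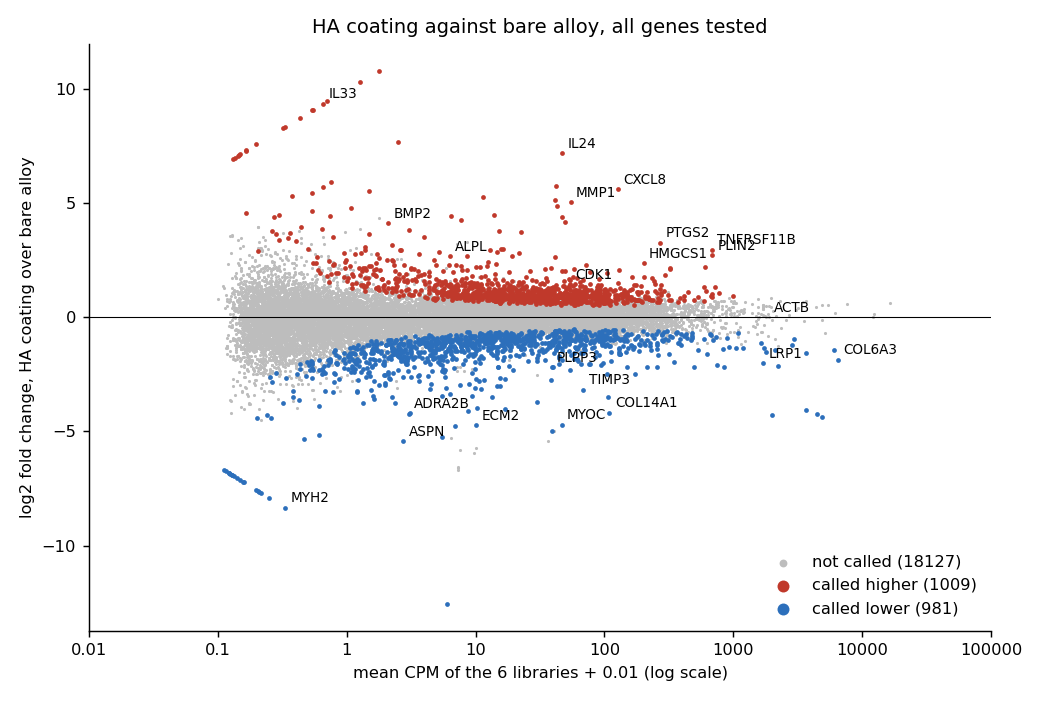
Each point is 1 of the 20117 genes tested; the x axis is the mean CPM of the 6 libraries plus 0.01 on a log scale and the y axis the edgeR log2 fold change of HA coating over bare alloy. Red points are the 1009 genes called higher and blue points the 981 called lower; IL24 and CXCL8 stand high above 0, COL14A1 and MYOC far below it, and ACTB lies at 0.01.

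Called genes carried a sizeable part of the messages. Without structural RNA rows, the genes called lower summed to 120263, 113149 and 120640 CPM on bare alloy and to 58977, 40742 and 46071 on the HA coating. Those called higher summed to 33762, 35033 and 33486 CPM and to 61556, 71728 and 82520. These sums describe genes that were chosen for their difference. By level, 0.972% of the genes under 1 CPM rose and 1.35% fell, and between 1 and 10 CPM 5.01% rose and 7.87% fell. Between 10 and 100 CPM 7.59% rose and 4.97% fell, and over 100 CPM 6.34% and 7.05%.

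How many genes passed depended on which libraries were in the fit. Leaving out HA replicate 1 raised the counts to 2282 higher and 1903 lower. Leaving out bare alloy replicate 2 lowered them to 274 and 324, bare alloy replicate 3 to 279 and 322, bare alloy replicate 1 to 374 and 483, and HA replicate 2 to 561 and 531. In all 6 of these fits 1008 rises and all 981 falls kept their sign, and 220 and 261 kept their call. In nearly all called genes the groups did not overlap, so leaving out 1 library could hardly turn a sign. The kept signs are thus no separate evidence on direction. Below, "held in n of 6" gives the number of these fits in which a call was kept, and a called gene given with its fold change and without it held in 6 of 6. Counts within a term moved as well, and the counts in these fits are given for the direction that each paragraph describes. A correction for GC content and gene length gave 1998 genes higher and 1679 lower, so it called more genes throughout. Term counts after this correction, given below, stand against that larger background. More calls in a term after it do not mean a stronger change. Genes called lower had a median transcript length of 4158 bases, against 3010 for all tested and 2943 for those called higher. Their median GC content was 49.7%, against 48.3% for all tested and 44.3% for those called higher.

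Secreted inflammatory genes rose most. Of the 170 tested genes of KEGG's cytokine-cytokine receptor interaction 34 rose and 15 fell, against 7.62% higher and 5.94% lower among all 5955 tested genes with a KEGG entry. The IL-17 signaling pathway had 22 rises and 1 fall among 75, and the TNF signaling pathway 24 and 6 among 107. Their medians were 0.10, 0.35 and 0.14, against 0.02 for all genes, and most members of each were not called. Over the 6 fits the rises numbered 25 to 38, 14 to 28 and 14 to 29, fewest without bare alloy replicate 2 or 3 and most without HA replicate 1. Of the 24 genes with GO's chemokine activity 12 rose and 3 fell (median 2.23), against 6.38% and 5.54% of 14501 tested genes with a GO entry. Over the 6 fits 11 to 14 of them rose and 1 to 2 fell, and without HA replicate 3 their median was 1.17. In Reactome's entry for extracellular mediators that IL-10 holds down, 14 of 17 rose and none fell by edgeR's test (median 3.72; 11 to 14 rises over the 6 fits), with CCL2 and IL1A beside the genes below, against 7.74% and 5.56% of 8380 tested genes with a Reactome entry. Macrophage and osteoclast markers summed to 78.5 to 89.9 CPM on bare alloy and 68.6 to 101 on the HA coating with none of 6 tested called by edgeR, and PTPRC, found on all white blood cells, lay at 0.639 CPM or less.

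IL24, a cytokine related to IL-10 (ENSG00000162892, GRCh38 chromosome 1, 206897443 to 206904139), lay at 0.637, 0.638 and 0.655 CPM on bare alloy and at 75.4, 84.2 and 119 on the HA coating. The groups were far apart and the bare libraries nearly equal (log2 fold change 7.17 ± 0.26, SE; adjusted p = 7.34e-06). CXCL8, which draws neutrophils (ENSG00000169429, chromosome 4, 73740519 to 73743715), went from 4.6, 5.71 and 5.19 CPM to 163, 238 and 346 (5.59 ± 0.31; adjusted p = 5.17e-05). IL1B, the fever cytokine made as a precursor, went from 4.38, 5.14 and 3.46 CPM to 50.4, 80.2 and 139 (4.38 ± 0.38). HA replicate 1 was the lowest and HA replicate 3 the highest HA library in each of these genes.

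Among genes with a symbol, 5 cytokine genes had no counts in the bare libraries and at least 20 in every HA library. They were CSF2 and CSF3, growth factors of granulocytes and macrophages, CCL20, which draws lymphocytes and dendritic cells, IL20, a neighbour of IL24 on chromosome 1, and IL33, a nuclear alarm cytokine. IL33 lay at 0.687, 1.35 and 1.83 CPM on the HA coating, at least 23.6-fold higher when 3 counts per library are taken as the floor. For CSF3 the bound was 25.4-fold, for IL20 19.4-fold, for CSF2 15.6-fold and for CCL20 11.4-fold. Their levels were low, 0.383 to 2.98 CPM. ACOD1, which makes itaconate in activated macrophages, was at 0 in the bare libraries and at 0.192, 1.16 and 9.22 CPM on the HA coating, and its call held in 2 of 6.

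The CXCR3 ligands, induced by interferon, rose and differed among the HA libraries. CXCL10 lay at 2, 1.45 and 1.23 CPM on bare alloy and at 22.9, 52.3 and 171 on the HA coating (5.72 ± 0.73; adjusted p = 0.00286). The groups did not overlap, but in CPM HA replicates 1 and 3 were further from each other than HA replicate 1 was from bare alloy. CXCL9 and CXCL11 had the same order of HA libraries. IDO1, which breaks down tryptophan, lay at 2.76 to 3.06 CPM on bare alloy and at 5.22, 10.6 and 52.5 on the HA coating, and its call held in 2 of 6.

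Some chemokine and cytokine genes fell. ACKR4, a receptor that removes chemokines, lay at 22.1, 23.6 and 15.3 CPM on bare alloy and at 2.16, 3.79 and 3.16 on the HA coating (-2.74 ± 0.27; adjusted p = 0.000888). CXCL12, a chemokine of the bone marrow stroma, fell from 27.4, 26.7 and 23.3 CPM to 7.27, 4.83 and 8.88. IL7, a lymphocyte growth factor, fell by 1.25 on the log2 scale and held in 5 of 6, and CXCL16 fell by 1.09 and held in 3 of 6.

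Of 5 regulators of these signals, named with their values known, 4 rose and 1 fell. ZC3H12A, a nuclease that degrades cytokine messages, went from 4.31, 3.14 and 3.36 CPM to 19.9, 11.5 and 17.7 (2.18 ± 0.26; adjusted p = 0.0021). BIRC3, a ubiquitin ligase of TNF receptor signalling, rose by 1.99 ± 0.27, with 25.2 to 35.4 CPM on the HA coating and at most 9.39 on bare alloy. NFKBIA, the inhibitor IkB-alpha, rose by 0.97 ± 0.22 and held in 3 of 6, and SOCS3, which damps cytokine receptors, by 1.31 ± 0.24 and held in 4 of 6. JUN, part of the AP-1 factor, moved the other way, from 159, 192 and 209 CPM to 95.6, 57.3 and 65.1 (-1.36 ± 0.22).

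Several of the chemokine genes that rose lie side by side on chromosome 4. CXCL8, CXCL6, PF4V1, CXCL1, CXCL5, CXCL3, CXCL2 and MTHFD2L formed an unbroken run of 8 tested protein-coding genes that rose, the longest of 27 runs of at least 3 neighbours called the same way. Their log2 fold changes ran from 1.15 to 5.59. The calls of CXCL2 and MTHFD2L held in 3 and in 1 of 6. CXCL9, CXCL10 and CXCL11 formed another run on the same chromosome, and IL20, IL24 and FCMR one on chromosome 1. CXCL1, CXCL2 and CXCL3 are near-identical copies, and how reads that match several of them were counted is not given in the sources used here.

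The promoters of 4 called genes of the TNF and chemokine terms are shown because these genes rose and because matches to an NF-kB motif lay in their promoters. Each is the 250 bases before the gene start, from RefSeq on GRCh38.p14, on the gene's own strand. They are CXCL8 at chr4:73740319-73740568, CXCL1 at chr4:73869143-73869392, BIRC3 at chr11:102317234-102317483 and ICAM1 at chr19:10270870-10271119, each on the plus strand. Capitals mark letters that match GGNNTTTCC (NF-kB) or TGANTCA (AP-1) on either strand, and neither string contains the other.
CXCL8: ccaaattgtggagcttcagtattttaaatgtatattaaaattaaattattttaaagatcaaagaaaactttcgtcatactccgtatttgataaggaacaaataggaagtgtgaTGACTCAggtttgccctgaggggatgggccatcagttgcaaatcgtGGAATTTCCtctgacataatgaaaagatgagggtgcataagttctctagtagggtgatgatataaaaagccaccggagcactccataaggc
CXCL1: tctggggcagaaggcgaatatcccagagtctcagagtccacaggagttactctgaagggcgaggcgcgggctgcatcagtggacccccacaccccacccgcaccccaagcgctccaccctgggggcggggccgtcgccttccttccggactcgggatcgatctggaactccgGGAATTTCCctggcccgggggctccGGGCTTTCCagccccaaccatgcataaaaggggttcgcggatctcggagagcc
BIRC3: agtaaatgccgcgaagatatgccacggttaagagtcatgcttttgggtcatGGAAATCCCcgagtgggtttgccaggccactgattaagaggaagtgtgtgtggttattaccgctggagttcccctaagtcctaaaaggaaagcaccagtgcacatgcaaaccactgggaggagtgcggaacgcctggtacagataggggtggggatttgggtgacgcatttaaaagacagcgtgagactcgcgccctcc
ICAM1: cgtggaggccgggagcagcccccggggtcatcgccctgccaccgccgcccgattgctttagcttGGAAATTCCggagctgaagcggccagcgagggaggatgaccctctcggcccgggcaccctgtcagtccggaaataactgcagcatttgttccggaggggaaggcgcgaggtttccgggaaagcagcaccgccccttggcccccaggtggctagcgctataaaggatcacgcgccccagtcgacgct
The NF-kB match of CXCL8 began 91 bases before the start, and its AP-1 match 137 bases before it. CXCL1 had 2 NF-kB matches, 78 and 53 bases before the start, while those of BIRC3 and ICAM1 read on the opposite strand, 199 and 186 bases before it. ICAM1, an adhesion molecule for white blood cells, lay at 42.2, 25.6 and 31.3 CPM on bare alloy and at 129, 65.1 and 115 on the HA coating (1.64 ± 0.28), and held in 4 of 6.

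Promoters could be matched for 11612 of the 14399 protein-coding genes tested. GGNNTTTCC occurred on either strand in 5.85% of these, in 10.1% of the 743 promoters of genes called higher and in 4.82% of the 602 of genes called lower. Among genes past 4-fold it occurred in 20.5% of 78 that rose and in 1.04% of 96 that fell. It was found in 12 of the 25 promoters of called TNF pathway genes, namely those of TNFAIP3, NFKBIA, ICAM1, BIRC3, IL6, CCL20, CXCL10 and 5 CXCL genes of the run on chromosome 4. The copies of the CXCL genes share promoter sequence and are not independent. TATAAA was found in 6.15% of all promoters, in 32.1% of those past 4-fold higher and in 13.5% of those past 4-fold lower. A match is a string of letters, and no binding was measured. The shares past 4-fold and within pathways were computed after the values were seen.

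**Figure D2:**
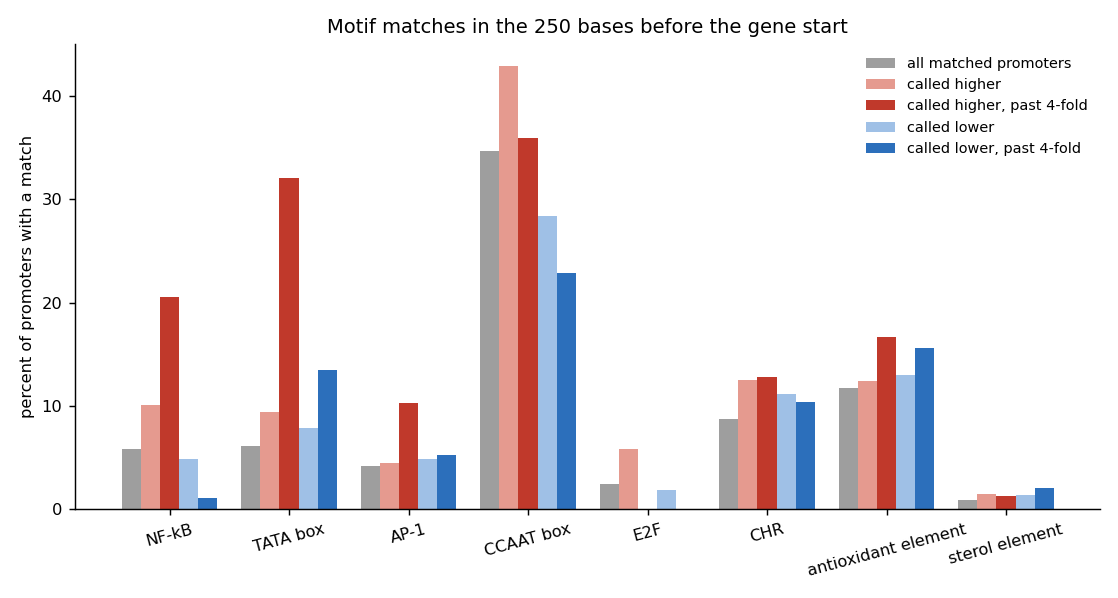
The y axis is the percent of promoters with at least 1 match to each motif on either strand, within 250 bases before the gene start, for all 11612 matched promoters, genes called higher (743), higher past 4-fold (78), lower (602) and lower past 4-fold (96). The NF-kB bar for genes higher past 4-fold reaches 20.5%, against 5.85% for all promoters, and the E2F bar for genes called higher 5.79%, against 2.45%.

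PTGS2 and PLA2G4A, which act in the first steps of prostaglandin synthesis, rose. PTGS2, the inducible cyclooxygenase (ENSG00000073756, chromosome 1, 186671791 to 186680423), lay at 50.8, 49.9 and 53.8 CPM on bare alloy and at 508, 411 and 556 on the HA coating (3.26 ± 0.19; adjusted p = 5.47e-05). PLA2G4A, the phospholipase that frees arachidonic acid, went from 116, 125 and 114 CPM to 421, 657 and 514 (2.16 ± 0.20). Both were several times higher in every HA library. PTGFR, the receptor of prostaglandin F, fell from 188, 217 and 182 CPM to 52.6, 82.9 and 58.2 (-1.60 ± 0.21), and EPHX2, which breaks down epoxides of arachidonic acid, fell by 1.28 ± 0.19. KEGG's arachidonic acid metabolism as a whole had 5 rises and 4 falls among 32, with a median near 0, and 2 to 6 rises and 1 to 6 falls over the 6 fits.

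Genes of sterol synthesis rose. Of 19 tested genes of KEGG's steroid biosynthesis 8 rose and none fell by edgeR's test (median 0.62), and of 20 of terpenoid backbone biosynthesis 7 rose and none fell (median 0.34). Over the 6 fits these numbered 4 to 11 and 6 to 9. HMGCS1, which makes the precursor HMG-CoA, went from 59.6, 75.2 and 62.5 CPM to 248, 381 and 379 (2.35 ± 0.22; adjusted p = 0.000704). EBP, a sterol isomerase, went from 10.8, 9.65 and 10.7 CPM to 34.6, 29.2 and 62.8 (2.02 ± 0.28), and FDPS, the farnesyl diphosphate synthase, rose by 1.77 ± 0.23. Every HA library of these 3 genes lay above every bare one. SREBF1, a transcription factor of lipid synthesis, moved the other way, by -0.99 ± 0.22, and held in 1 of 6. CH25H, which makes an oxysterol, went from 3.55, 3.61 and 3.54 CPM to 25.6, 17 and 41.8 (2.98 ± 0.32). Against bare alloy replicate 1 alone, the median of the steroid biosynthesis genes was 0.73.

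Single genes of lipid handling moved in both directions. PLIN2, which coats lipid droplets (ENSG00000147872, chromosome 9, 19108375 to 19149290), went from 177, 176 and 191 CPM to 961, 855 and 1720 (2.70 ± 0.28; adjusted p = 0.00113). FABP3, a fatty acid carrier, went from 5.64, 5.59 and 5.06 CPM to 26.5, 33.6 and 55.1 (2.82 ± 0.28). HA replicate 3 was the highest in both. Both are in KEGG's PPAR signaling pathway, where 9 of 55 rose and 4 fell (5 to 14 rises over the 6 fits). PLPP3, a lipid phosphate phosphatase, fell from 61.3, 66.9 and 63.5 CPM to 15.4, 12.6 and 13.5 (-2.20 ± 0.16). SPTLC3, of sphingolipid synthesis, fell from 77.1, 81.5 and 77.7 CPM to 28.3, 25.2 and 30.2. These 4 genes were named with their values known. KEGG's glycerophospholipid metabolism had 3 rises and 5 falls among 77, 3.9% and 6.49%, and sphingolipid metabolism 4 and 4 among 42. The lipid droplet gene PLIN1 (0.07) and the carrier FABP4 (-0.70) were not called. Without HA replicate 3 the log2 fold change of FABP4 was -1.63, and it was called lower (edgeR adjusted p = 0.0239).

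**Figure D3:**
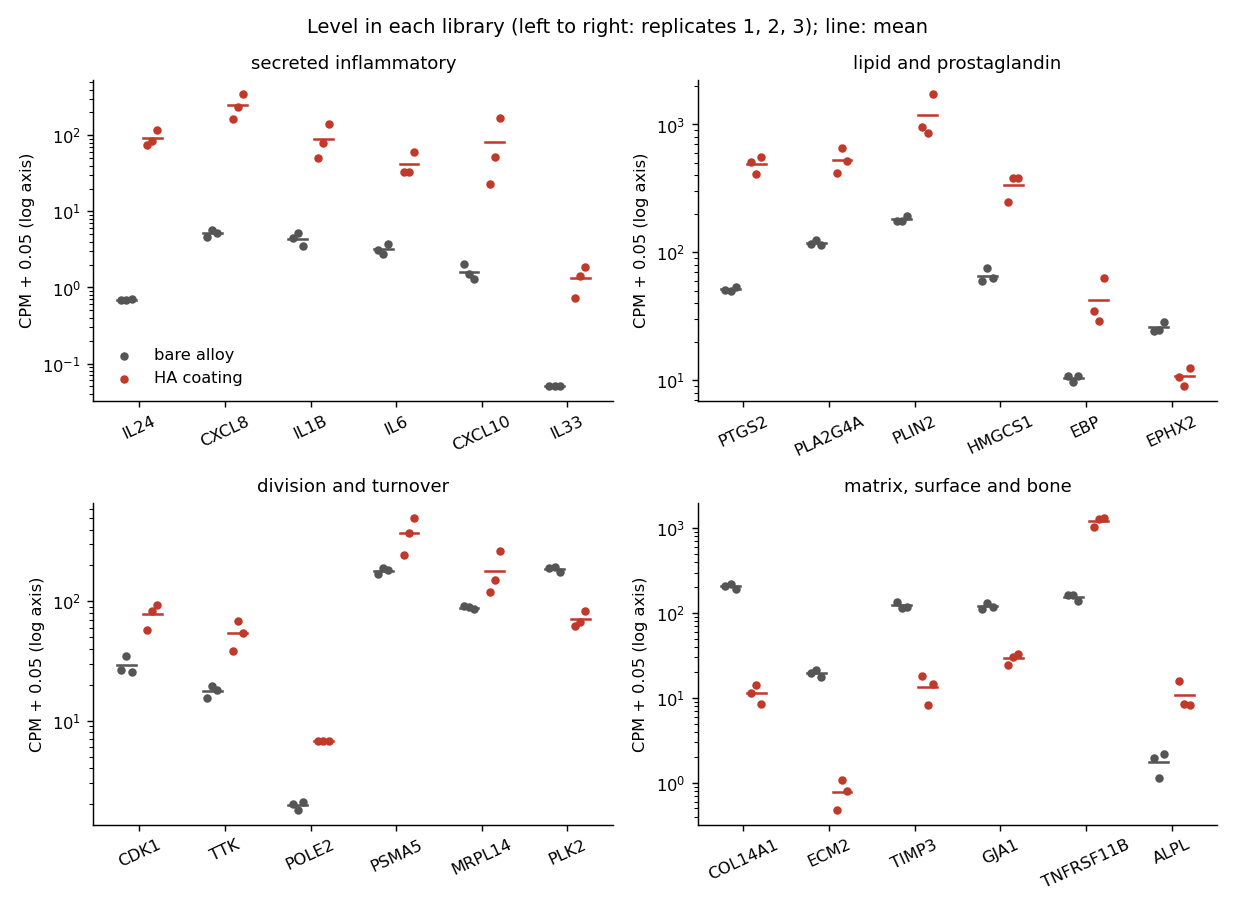
Level of 24 genes in each of the 6 libraries, as CPM + 0.05 on a log axis; grey points are bare alloy and red points HA coating, replicates 1, 2 and 3 from left to right, and the line is the mean. In each gene drawn the 3 HA points lie on one side of the 3 bare points, and the HA points of CXCL10 are spread widely, at 22.9, 52.3 and 171 CPM, while those of POLE2 coincide.

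DNA replication had the highest share of rises among the 292 KEGG terms with 15 to 200 tested genes. Of its 36 genes 19 rose and none fell by edgeR's test, 52.8% (median 0.78). Of 122 genes of the KEGG cell cycle 33 rose and 3 fell (median 0.39; 16 to 48 rises over the 6 fits), and of 404 genes of GO's cell division 84 rose and 8 fell (median 0.31; 38 to 132 rises). All 3 medians lay above 0 in each HA library, at 0.76, 0.68 and 0.87 for DNA replication in HA replicates 1, 2 and 3. The replication calls fell to 3 without bare alloy replicate 3, 5 without bare alloy replicate 2 and 4 without bare alloy replicate 1, while the median stayed between 0.76 and 0.86 in these fits and in those without an HA library.

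POLE2, a subunit of DNA polymerase epsilon, lay at 1.96, 1.74 and 2.05 CPM on bare alloy and at 6.69, 6.78 and 6.74 on the HA coating (1.81 ± 0.21; adjusted p = 0.00179). The 3 HA libraries were nearly equal. CDK1, the kinase that starts mitosis (ENSG00000170312, chromosome 10, 60778331 to 60794828), went from 26.5, 35.1 and 25.6 CPM to 57.8, 83.8 and 94 (1.43 ± 0.22). TTK, a kinase of the spindle checkpoint, went from 15.6, 19.6 and 18.2 CPM to 38, 69 and 54.6 (1.60 ± 0.23). MCM6, part of the replicative helicase, rose by 0.93 ± 0.14 and held in 4 of 6.

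Falls were few in the KEGG cell cycle, 2.46% of its genes against 5.94% of all genes with a KEGG entry. Some kinases and inhibitors related to division fell, named with their values known. PLK2, a kinase induced by stress, fell from 189, 194 and 175 CPM to 62.6, 67 and 83.6 (-1.39 ± 0.17; adjusted p = 0.0024). LATS2, a Hippo pathway kinase, fell by 1.19 ± 0.19. CDKN2C, which inhibits the kinases of early cell cycle, fell from 59.5, 64.6 and 65.4 CPM to 29.2, 27.6 and 37.9 and held in 4 of 6, and CDKN1B, the inhibitor p27, fell by 0.59 ± 0.16 and held in 2 of 6.

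DNA repair terms followed replication, with which they share genes. In KEGG's mismatch repair 8 of 23 rose, in homologous recombination 9 of 41 and in the Fanconi anemia pathway 9 of 54, with no falls called by edgeR and medians of 0.62, 0.61 and 0.36. Without 1 library these counts came to 1 to 11, 1 to 16 and 3 to 15. BLM, a helicase of recombination, rose by 1.42 ± 0.20. PCNA, the sliding clamp of both processes, went from 66.7, 75.7 and 75.7 CPM to 124, 163 and 193 (1.14 ± 0.19) and held in 3 of 6. Among Reactome's reaction entries, loading of claspin at firing origins had 14 of 20 genes higher and none lower by edgeR's test (median 0.85; 5 to 17 higher over the 6 fits).

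Promoters of CDK1 at chr10:60778081-60778330 (plus strand) and MCM6 at chr2:135876444-135876693 (minus strand) are shown because both rose with the cell cycle. Capitals mark matches on either strand to 3 motifs of dividing cells. CCAAT is the CCAAT box. CHR, the cell cycle homology region, was searched as TTTGAA. The letters searched for E2F were TTTNGCGC, which can match both strands at overlapping places.
CDK1: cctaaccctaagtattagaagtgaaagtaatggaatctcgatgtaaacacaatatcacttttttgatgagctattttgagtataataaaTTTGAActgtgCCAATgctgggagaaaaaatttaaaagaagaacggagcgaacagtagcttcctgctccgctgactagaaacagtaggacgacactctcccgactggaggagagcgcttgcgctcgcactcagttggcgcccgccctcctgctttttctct
MCM6: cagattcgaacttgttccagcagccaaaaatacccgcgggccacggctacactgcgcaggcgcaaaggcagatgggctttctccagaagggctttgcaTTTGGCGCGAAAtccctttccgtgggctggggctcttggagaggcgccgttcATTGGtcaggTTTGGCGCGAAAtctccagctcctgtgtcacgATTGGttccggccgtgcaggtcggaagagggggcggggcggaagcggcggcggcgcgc
CDK1 had a CCAAT match 150 bases before the start and a CHR match 161 bases before it. In MCM6 CCAAT matched on the opposite strand 100 and 58 bases before the start, and E2F letters matched 152 and 90 bases before it as written and 148 and 86 bases before it on the opposite strand.

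CCAAT occurred in 34.7% of all promoters, in 42.9% of those of genes called higher and in 28.4% of those called lower. It was found in 22 of the 30 promoters of called cell cycle genes, and in 5 of the 6 of called steroid biosynthesis genes. TTTNGCGC occurred in 2.45% of all, 5.79% of those higher, 1.83% of those lower and 6 of the 30. CHR occurred in 8.74% of all, 12.5% of those higher, 11.1% of those lower and 5 of the 30. Its share thus lay above that of all promoters for rises and falls alike. An antioxidant and an interferon element were also searched. The antioxidant element occurred in 11.7% of all, 12.4% of those higher and 13.0% of those lower. For the interferon element these shares were 2.59%, 2.29% and 3.82%, and for AP-1 4.13%, 4.44% and 4.82%. TCACNCCAC, a sterol element, occurred in 0.853% of all promoters and in none of the 6 steroid biosynthesis promoters, which says only that these letters are not in this window.

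Proteasome and rRNA processing genes rose by small amounts. In KEGG's proteasome 14 of 43 genes rose and none fell by edgeR's test (median 0.64), and in GO's rRNA processing 23 of 159 rose and none fell (median 0.44). The following 3 KEGG terms of protein turnover and RNA processing had shares of rises under the 7.62% of all genes with a KEGG entry. Ubiquitin mediated proteolysis had 7 rises and 4 falls among 137, autophagy 2 and 7 among 132, and the spliceosome 10 rises among 134, 7.46%. The proteasome median was 0.28 in HA replicate 1, 0.65 in HA replicate 2 and 0.97 in HA replicate 3, each relative to the bare mean. PSMA5, a core subunit, lay at 171, 189 and 182 CPM on bare alloy and at 244, 371 and 501 on the HA coating (1.04 ± 0.25; adjusted p = 0.034), and held in 2 of 6. PSMD14, which removes ubiquitin from incoming proteins, rose by 1.27 ± 0.22 and held in 4 of 6.

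These calls rested on the libraries in the fit. Without HA replicate 1 the proteasome had 33 rises and rRNA processing 61, without HA replicate 2 they had 2 and 1, without HA replicate 3 6 and 11, without bare alloy replicate 1 1 and 2, and without bare alloy replicates 2 or 3 none by edgeR. The trend with GC content and length was largest in HA replicates 2 and 3. Corrected for it, 28 proteasome and 51 rRNA processing genes rose, with medians of 0.51 and 0.36, while rises among all genes went from 1009 to 1998. What else that trend contributed was not tested.

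Ribosomal proteins and the respiratory chain had positive medians and almost no calls. KEGG's ribosome had 3 rises among 134 (median 0.46) and oxidative phosphorylation 1 among 121 (median 0.51), both under the background. The ribosome median was -0.08 in HA replicate 1, 0.30 in HA replicate 2 and 0.97 in HA replicate 3, so HA replicate 1 lay slightly on the other side of the bare mean. Without HA replicate 1 the 2 terms had 51 and 57 rises, and without HA replicate 3 their medians were 0.12 and 0.29. The 3 ribosome calls were MRPL14, MRPL15 and MRPL3, which belong to the mitochondrial ribosome. They held in 2, 1 and 1 of 6. Among all 1468 tested genes with GO's mitochondrion 110 rose and 43 fell, 7.49% and 2.93%, near and below the shares of all genes with a GO entry, and 20 to 382 rose over the 6 fits.

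**Figure D4:**
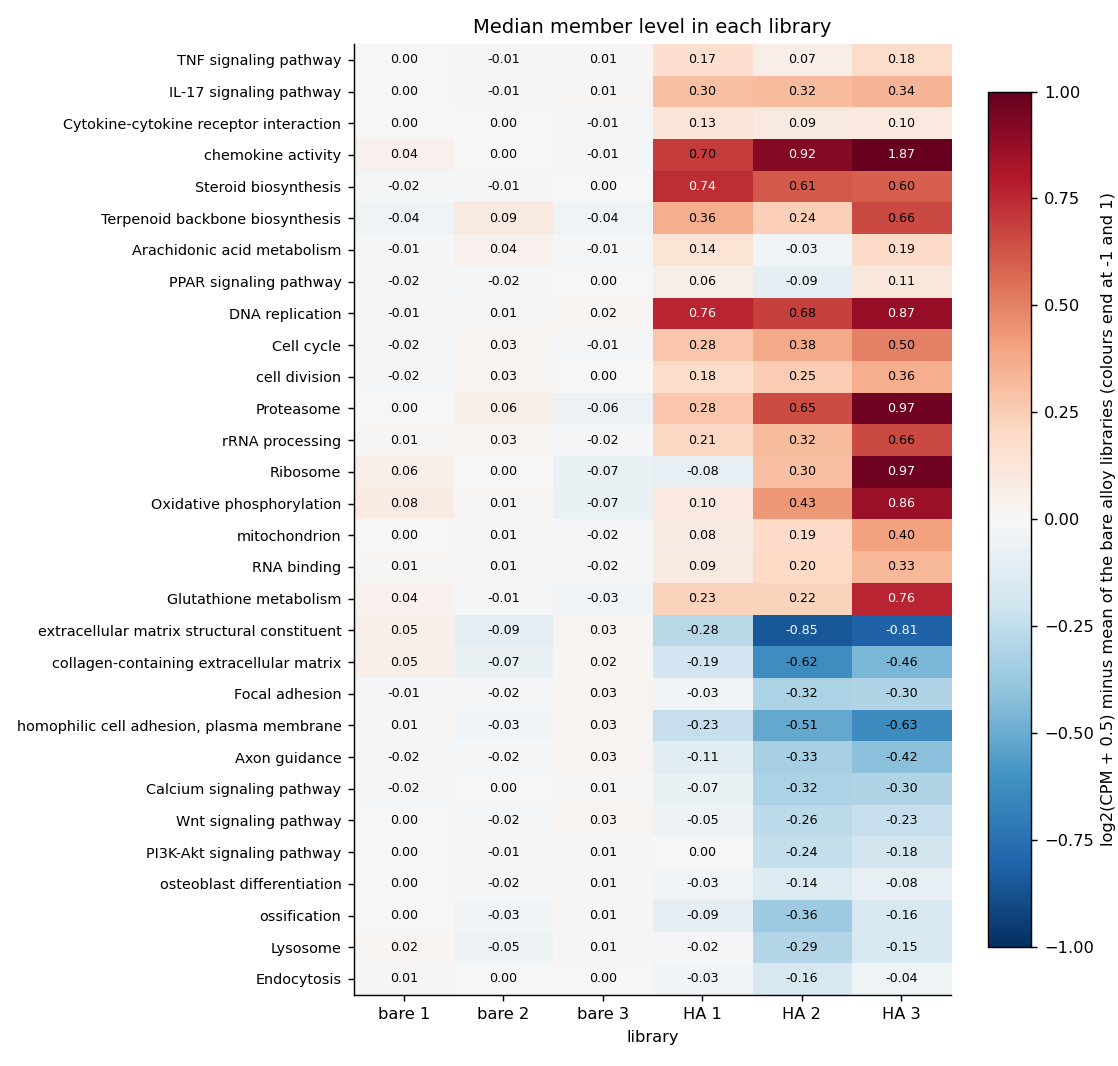
Rows are 30 annotation terms and columns the 6 libraries; the number and colour give the median over members of log2(CPM + 0.5) minus the mean of the bare alloy libraries, with colours ending at -1 and 1. Bare columns lie near 0, DNA replication is at 0.76, 0.68 and 0.87 in the HA libraries, and the ribosome runs from -0.08 in HA 1 to 0.97 in HA 3.

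Redox and detoxifying genes rose in part. In KEGG's glutathione metabolism 9 of 45 rose and 1 fell (median 0.45), with the median at 0.23, 0.22 and 0.76 in HA replicates 1, 2 and 3. Over the 6 fits 0 to 17 rose. MGST1, a membrane glutathione transferase, rose by 1.24 ± 0.20 and held in 5 of 6. SOD2, the mitochondrial superoxide dismutase and an NF-kB target, went from 217, 230 and 212 CPM to 957, 963 and 1060 (2.18 ± 0.17; adjusted p = 0.000277). CYP1A1, induced through the aryl hydrocarbon receptor, went from 12.3, 9.23 and 13 CPM to 80.9, 48.9 and 84.6 (2.64 ± 0.25). The pentose phosphate pathway, which supplies NADPH, had 6 of 25 genes higher (0 to 10 over the 6 fits), among them PGD at 1.10 ± 0.17, held in 4 of 6.

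Genes of iron and metal reduction split. The reductases STEAP4, STEAP1 and STEAP2 are neighbours on chromosome 7 and rose by 1.75, 1.31 and 0.99, and their calls held in 6, 2 and 3 of 6. CYBRD1, another ferric reductase, fell from 789, 812 and 758 CPM to 407, 394 and 404 (-0.97 ± 0.16), and held in 4 of 6. HEPH, a ferroxidase of iron export, fell from 16.4, 18.8 and 17.6 CPM to 3.91, 2.14 and 2.1 (-2.69 ± 0.28; adjusted p = 0.00105).

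Genes of the extracellular matrix fell widely. Of 111 genes with GO's extracellular matrix structural constituent 36 fell and 2 rose, 32.4% and 1.8% (median -0.65). Of 279 of the collagen-containing matrix 74 fell and 12 rose (median -0.49), and over the 6 fits 35 to 108 fell and 3 to 19 rose, most without HA replicate 1. Among Reactome entries, removal of fibrillar collagen C-propeptides had 7 of 15 genes lower and none higher by edgeR's test (median -1.13; 3 to 8 lower over the 6 fits). Corrected for GC content and length, 40 structural constituent genes fell and 5 rose, with a median of -0.44. Uncorrected, the structural constituent median was -0.28, -0.85 and -0.81 in HA replicates 1, 2 and 3. The number of falls was 58 without HA replicate 1, 23 without HA replicate 2, 30 without HA replicate 3 and 17 to 19 without 1 bare library. Chondrocyte markers, nearly all of it SOX9, fell in the same direction, from 8.61 to 10.1 CPM to 2.24 to 4.94, and their part in the matrix falls was not tested.

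COL14A1, a collagen that binds along fibrils (ENSG00000187955, chromosome 8, 120059780 to 120370917), lay at 207, 222 and 190 CPM on bare alloy and at 11.4, 14.3 and 8.38 on the HA coating (-4.19 ± 0.23; adjusted p = 5.17e-05). COL1A2, a chain of type I collagen, went from 3800, 3340 and 3620 CPM to 1170, 498 and 771 (-2.14 ± 0.31). COL6A3, of the beaded collagen VI, went from 10200, 9520 and 10900 CPM to 4770, 2050 and 1580 (-1.87 ± 0.39) and held in 3 of 6. The HA libraries of COL6A3 differed by more than those of COL14A1, with HA replicate 1 the highest.

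The neighbours OGN, ASPN and ECM2 on chromosome 9 fell together. ECM2, a matrix proteoglycan-like protein (ENSG00000106823, chromosome 9, 92493554 to 92536655), lay at 19.4, 21.4 and 17.7 CPM on bare alloy and at 0.431, 1.02 and 0.754 on the HA coating (-4.72 ± 0.32). ASPN, asporin, went from 4.71, 5.96 and 5.4 CPM to 0.208, 0.0464 and 0.118 (-5.42 ± 0.45), and OGN, osteoglycin, from 1.55, 1.46 and 1.23 CPM to 0.0958, 0.278 and 0.0591 (-3.27 ± 0.58). MYOC, myocilin, a secreted protein known from the eye's outflow tissue, fell from 98.6, 87.5 and 82.2 CPM to 3, 3.82 and 3.46 (-4.70 ± 0.19; adjusted p = 7.34e-06).

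Enzymes that cut the matrix and their inhibitors did not move as one. MMP1, an interstitial collagenase, went from 3.78, 2.79 and 3.13 CPM to 52.3, 64.6 and 200 (5.03 ± 0.53; adjusted p = 0.00117). MMP2, a gelatinase, fell from 5620, 5010 and 5690 CPM to 2490, 1190 and 1870 (-1.56 ± 0.28) and held in 5 of 6. TIMP3, an inhibitor bound to the matrix, fell from 135, 115 and 119 CPM to 17.9, 8.17 and 14.7 (-3.18 ± 0.28). MMP1 was thus higher and both others lower in every HA library.

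Receptors and contacts at the cell surface fell with the matrix. In KEGG's focal adhesion 27 of 182 fell and 3 rose (median -0.26). In GO's homophilic adhesion 22 of 116 fell and 1 rose (median -0.60). Over the 6 fits these terms had 10 to 54 and 10 to 35 falls. Corrected for GC content and length, their medians were -0.1 and -0.43, with 34 and 26 falls and 10 and 3 rises. ITGA11, a collagen-binding integrin, fell from 362, 333 and 358 CPM to 123, 67.7 and 42.2 (-2.17 ± 0.34). ITGA2, another collagen-binding integrin, rose by 1.38 ± 0.22. GJA1, the gap junction protein connexin 43 of osteoblasts, fell from 112, 131 and 119 CPM to 24.4, 30.5 and 33.3 (-2.04 ± 0.17; adjusted p = 0.000444). CDH5, a cadherin known from endothelium, fell from 27.8, 20.4 and 26.3 CPM to 3.53, 1.87 and 1.23. CDH5 was the only 1 of 4 tested endothelial markers that edgeR called. PECAM1 lay at 6.95, 5.82 and 6.53 CPM on bare alloy and at 7.36, 8.97 and 10.7 on the HA coating. KDR also lay higher there, at 0.591, 0.851 and 0.591 CPM against 0.146, 0.171 and 0. TEK lay lower, at 1.77, 2.48 and 1.79 CPM against 3.02, 2.55 and 2.91. VWF lay at 0.281 CPM or less.

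Of 40 tested protein-coding genes of the clustered protocadherins, a family counted after some of its values were seen, 11 fell and none rose by edgeR's test (median -1.46; 6 to 14 falls over the 6 fits). PCDHB13, PCDHB14 and PCDHB15, neighbours on chromosome 5, fell by 1.74, 2.00 and 1.48 on the log2 scale, and their calls held in 2, 6 and 5 of 6. PCDHB16 fell from 4.44, 4.65 and 4.93 CPM to 0.735, 0.975 and 0.576 (-2.61 ± 0.28). PCDHGA10, of the gamma cluster, fell by 2.96 ± 0.49. These genes have near-identical stretches, and members of the gamma cluster share exons, so reads may be split between them.

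Genes of axon guidance fell, among them receptors and ligands that also act outside nerves. In KEGG's axon guidance 29 of 166 fell and 2 rose (median -0.32, with 11 to 47 falls over the 6 fits). Corrected for GC content and length, its median was -0.11, with 44 falls and 8 rises, while falls among all genes went from 981 to 1679. Among Reactome entries, autophosphorylation of EPH receptors had 8 of 19 genes lower and 1 higher, with 1 to 10 lower over the 6 fits. These were, named after their values were seen, EPHA3, EPHA4, EPHA5, EPHA6, EPHB2, EPHB3, EPHB6 and EFNB2, which fell by 1.12 to 3.62 on the log2 scale, and EFNA1, which rose by 1.13. EPHA4 alone of these held in 6 of 6 (-1.72 ± 0.24; adjusted p = 0.00363). NTN1, the guidance ligand netrin 1, fell from 27.3, 27.7 and 29.9 CPM to 12.1, 6.3 and 7.99 (-1.68 ± 0.25).

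Calcium and ion channel genes moved both ways. In KEGG's calcium signaling 29 of 169 fell and 8 rose (median -0.30, with 14 to 46 falls over the 6 fits). Corrected for GC content and length, its median was -0.15, with 33 falls and 14 rises. TRPA1, a channel opened by irritants and oxidants, went from 2.06, 2.65 and 1.54 CPM to 25.6, 36.5 and 22.8 (3.76 ± 0.28; adjusted p = 0.000268). ADRA2B, an adrenergic receptor, fell from 5.15, 5.46 and 6.63 CPM to 0.304, 0.186 and 0.429 (-4.22 ± 0.35). NALCN, a sodium leak channel, fell by 3.60 ± 0.41, next to ITGBL1 and FGF14 on chromosome 13, which fell by 3.70 and 3.22. AQP1, a water channel, fell from 22.5, 15.2 and 13.9 CPM to 1.28, 2.04 and 1.34 (-3.47 ± 0.29).

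**Figure D5:**
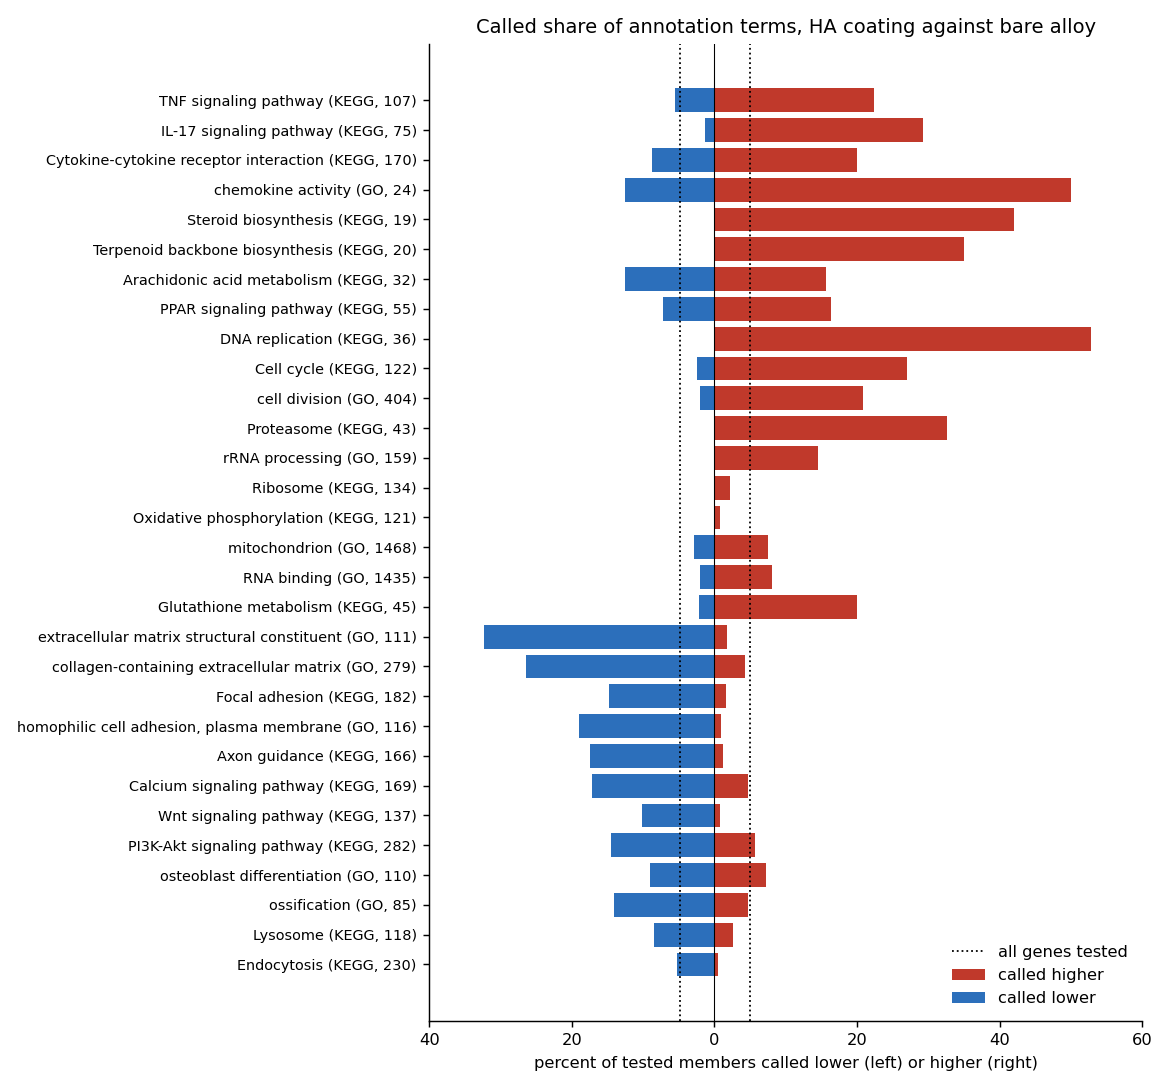
Bars give the percent of tested members called lower (left, blue) and higher (right, red) for 30 terms, with the source and the number of tested members in brackets. Dotted lines mark all genes tested, 4.88% lower and 5.02% higher; DNA replication reaches 52.8% higher and the matrix structural constituents 32.4% lower.

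Among signalling pathways, Wnt and PI3K-Akt had more falls than rises. In KEGG's Wnt signaling 14 of 137 fell, 10.2% against 5.94% of all genes with a KEGG entry, and 1 rose (median -0.15; 6 to 29 falls over the 6 fits). The Wnt receptors FZD1 and FZD2 fell by 1.77 ± 0.18 and 1.48 ± 0.22. In the Hedgehog pathway 3 of 43 fell, 6.98% and so near that background, namely the co-receptors GAS1, CDON and BOC, and none rose by edgeR's test; in the 6 fits 3 to 13 fell. GAS1 fell from 20.7, 32.2 and 35.9 CPM to 4.06, 4.44 and 4.98 (-2.72 ± 0.24; adjusted p = 0.000517). PI3K-Akt signaling, which also holds matrix genes and their receptors, had 41 falls and 16 rises among 282 (median -0.09, with 14 to 73 falls over the 6 fits). Corrected for GC content and length, PI3K-Akt had 50 falls and 32 rises (median -0.01), and Wnt 19 and 8 (median -0.1). DLL1, a Notch ligand, rose by 1.54 ± 0.21, while MAML2, a Notch co-activator, fell by 1.71 ± 0.25.

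Transcription factor genes gave no common direction. Of 508 with GO's DNA-binding transcription factor activity 28 rose and 35 fell, 5.51% and 6.89%, near the share of genes with a GO entry, with 4 to 36 rises and 13 to 80 falls over the 6 fits. EBF1, a factor of marrow stroma and B cells, fell from 9.84, 9.4 and 8.02 CPM to 2.19, 1.75 and 1.4 (-2.35 ± 0.24). MEF2C, of muscle and bone cells, fell from 69.4, 68.2 and 68.1 CPM to 23.2, 26.8 and 24.9 (-1.46 ± 0.14), and FOXO1 by 1.84 ± 0.23. MSC, musculin, rose from 3.09, 4.3 and 5.27 CPM to 17.7, 10.5 and 16 (1.80 ± 0.28). SOX9, the factor of cartilage, fell by 1.48 ± 0.27 and held in 5 of 6.

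Bone terms held rises and falls. Of 110 genes of GO's osteoblast differentiation 8 rose and 10 fell, 7.27% and 9.09% (median -0.10). Of 85 of ossification 4 rose and 12 fell, 4.71% and 14.1% (median -0.11). Among all tested genes with a GO entry 6.38% rose and 5.54% fell, so ossification leaned to falls. Over the 6 fits the first term had 2 to 18 rises and 4 to 24 falls, and the other 2 to 6 and 6 to 19. TNFRSF11B, osteoprotegerin, which blocks osteoclast formation, went from 165, 162 and 139 CPM to 1020, 1280 and 1320 (2.95 ± 0.20; adjusted p = 0.000162). BMP2, a bone morphogen, went from 0.164, 0.187 and 0.327 CPM to 3.9, 2.82 and 5.11 (4.11 ± 0.40). ALPL, the alkaline phosphatase of mineralization, went from 1.89, 1.09 and 2.16 CPM to 16, 8.54 and 8.26 (2.67 ± 0.36). All 3 were higher in every HA library.

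Other bone genes fell or were not called. CHRDL1, a BMP antagonist, fell from 130, 131 and 132 CPM to 39.5, 37.7 and 39.4 (-1.75 ± 0.14; adjusted p = 0.000349), with the libraries of each group nearly equal. LTBP3, which stores latent TGF-beta, fell by 1.95 ± 0.37 and held in 5 of 6. SPARC, a collagen-binding protein of bone, fell by 1.21 ± 0.20 and COL1A1 by 1.42 ± 0.37, and they held in 5 and 1 of 6. RUNX2, the factor that starts the osteoblast programme, lay at 2.06 to 2.67 CPM on bare alloy and at 4.12, 3.25 and 2.1 on the HA coating, and the groups overlapped (0.46 ± 0.30; adjusted p = 0.354). SPP1, osteopontin, lay at 51.6, 15.6 and 15.2 CPM and at 49.6, 45.6 and 45.6, with bare alloy replicate 1 at the level of the HA libraries (0.77 ± 0.43; adjusted p = 0.28). Without bare alloy replicate 1 the log2 fold change of SPP1 was 1.6, and it was called higher (edgeR adjusted p = 0.00684). BGLAP, an osteoblast marker, lay at 0.164, 0.265 and 0.18 CPM on bare alloy. On the HA coating BGLAP lay at 0.0958, 0.0464 and 0.251 CPM and was not called (edgeR adjusted p = 0.67). SP7, another marker, lay at 0.437 CPM in bare alloy replicate 1, had no counts in the other libraries compared and was not tested.

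Genes of the p53 pathway had 14 rises and 2 falls among 70 in KEGG (median 0.24; 4 to 19 rises over the 6 fits), and several of them are cell cycle genes. PMAIP1, which promotes cell death, went from 44.1, 43.3 and 37.6 CPM to 71.6, 109 and 162 (1.45 ± 0.27) and held in 3 of 6. The 2 falls were those of SESN3, a brake on mTOR signalling, by 1.94 on the log2 scale, and of ADGRB1, by 1.59 and held in 2 of 6, both named after their values were seen. The cytosolic DNA-sensing pathway had 11 rises and no fall by edgeR among 47 (median 0.39), and 4 to 18 rises over the 6 fits.

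Lysosomal and endocytic genes had few calls. In KEGG's lysosome 10 of 118 fell, 8.47%, and 3 rose (median -0.15). In endocytosis 12 of 230 fell, 5.22% and so under the 5.94% of all genes with a KEGG entry, and 1 rose (median -0.04), with 1 fall without bare alloy replicate 2 or 3 and 36 without HA replicate 1. CTSS, a protease that works outside acid compartments too, rose from 18.2, 22.4 and 18.3 CPM to 57.3, 69 and 110 (2.00 ± 0.25; adjusted p = 0.00276). TPP1, a lysosomal peptidase, fell by 1.20 ± 0.24 and held in 2 of 6. Without bare alloy replicate 1 or 2, or HA replicate 2, the lysosome had 1 fall, without bare alloy replicate 3 none by edgeR, and without HA replicate 1 it had 28.

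Long noncoding RNAs fell more often than they rose. Of 3624 tested, 1.27% were called higher and 4.22% lower, against 6.43% and 5.54% of 14399 protein-coding genes. Among genes between 1 and 10 CPM the shares were 2.59% and 9.34% for 1081 long noncoding genes, and 6.46% and 8.53% for 3141 protein-coding genes. Of the 153 that fell, 4 were structural RNA rows. LINC01111 went from 6.06, 5.76 and 5.83 CPM to 0.16, 0.217 and 0.576 (-4.19 ± 0.45; adjusted p = 0.00129). TPM1-AS fell by 3.51 ± 0.30 and ZFHX4-AS1 by 3.12 ± 0.31. Both are antisense genes, and whether strand was used in counting is not given in the sources used here.

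The myosin genes MYH2 and MYH13 had no counts on the HA coating. MYH2 lay at 0.873, 0.669 and 0.393 CPM on bare alloy, at least 13.5-fold higher than on the HA coating by the floor of 3 counts per library. MYH13 lay at 0.4, 0.451 and 0.327 CPM, at least 8.21-fold higher, and held in 3 of 6. Both encode heavy chains of skeletal muscle myosin. The 4 muscle markers summed to 2.49 to 3.44 CPM on bare alloy and 1.74 to 2.06 on the HA coating, and none of the 2 tested was called by edgeR.

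Genes often used as references set the scale of these changes. ACTB, beta-actin, lay at 2040, 1670 and 1900 CPM on bare alloy and at 2230, 1470 and 1960 on the HA coating (0.01 ± 0.21; adjusted p = 0.973). TBP, of the basal transcription machinery, had a log2 difference of 0.07 ± 0.16. HPRT1, of purine salvage, rose from 19.1, 18.6 and 16.5 CPM to 31.5, 39.7 and 58.2 (1.25 ± 0.23; adjusted p = 0.0124) and held in 4 of 6. GAPDH, EEF1A1 and PPIA had differences of 0.43, 0.61 and 0.79 that did not pass the test, and HA replicate 3 was the highest library in each of the 3. ACTB and TBP changed sign in some alternative fits, where they stayed within 0.11 of 0.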

How the data were processed

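RNA-seq of 9 MG-63 libraries was deposited as 1 gene table, of which the 6 libraries on bare alloy and HA coating were analysed. The authors deposited raw counts per gene and library, with no normalization per the file headers, and FPKM values that per the file headers scale the same counts by gene length and depth. Per the submitters' processing notes, featureCounts 2.0.1, StringTie 2.1.4, HISAT2 2.2.1, cutadapt 2.10 and limma were used with GRCh38. Their roles, the strand setting and the treatment of multiply matching reads were not given in the sources used here.

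Counts were tested with edgeR 4.0.16 (filterByExpr, TMM, quasi-likelihood F test, Benjamini-Hochberg adjusted p under 0.05 over the 20117 genes tested). The SE is the log2 fold change over the root of F. Members of terms come from the deposited KEGG (7096 genes), GO (18557) and Reactome (9778) columns, of which the last holds single reactions. Of 185 terms written down, 156 were found. GC content and length come from GENCODE 29 (94.7% of genes), and gene class from the transcript types deposited with the counts. Promoters come from RefSeq, matched by gene ID or unique symbol. The procedure was tested on simulated counts with the same dispersion for all genes and both groups. Changes were placed only in genes with a mean over 1 CPM, and 5553 of the 20117 genes tested lay under it. The procedure called 45% of 2-fold changes, 100% of 4-fold changes and 5 unchanged genes. In the real data the median SD of log2 levels was 0.14 for bare and 0.3 for HA libraries. These shares therefore may not hold for them, and a gene not called may still have changed.

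The terms, genes and motifs were chosen with earlier results of these data known. Genes were named by a rule: the 25 largest rises and falls with an FPKM of at least 1 and no overlap, the 10 largest by CPM each way, up to 3 members per term and direction, 5 long noncoding genes each way, reference and bone genes, genes at 0 in 1 group, and runs of at least 3 neighbours. TNFAIP3, MCM6, SESN3, ADGRB1 and the EPH and ephrin genes fall outside it and were chosen after their values were seen. Alternatives were DESeq2 1.42.0, limma 3.58.1 on log2(FPKM + 1) and log2(FPKM + 0.1), other scaling and filters, GC and length, all 9 libraries, a replicate block and each library left out.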

Additional observations from a re-analysis of the deposited data

How the results depend on the processing

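Under the 18 alternatives the number of genes called moved widely. DESeq2 called 1799 higher and 1509 lower, the GC and length offset 1998 and 1679, and a fit of all 9 libraries 1860 and 1658. Without a low-count filter 543 and 550 were called, and among genes with a mean FPKM of at least 5, a smaller set, 470 and 480. Against bare alloy replicate 1 alone, where the lone library is assumed to vary like the HA libraries, 107 and 179 were called, and 1980 of 1981 called genes kept their sign. These kept signs are no separate evidence on direction, because in nearly all called genes the HA and bare libraries did not overlap. Leaving out 1 library gave 274 to 2282 higher and 322 to 1903 lower, and the cause was not tested. The replicate block called 637 and 720; same-numbered libraries did not deviate together (r of -0.078, 0.085 and -0.09), so the numbers were not taken as pairs. Other scaling, limma on FPKM and removal of structural RNA stayed within 1.5 times. Of 2533 comparisons of the 146 genes described by their fold change, 2252 kept direction and side of the threshold, 259 lost the call, 7 gained it and 15 changed sign. SPP1, at 0.77, was at -0.11 against bare alloy replicate 1 alone. ACTB, at 0.01, was at -0.01 with the GC and length offset, -0.09 against bare alloy replicate 1 alone, -0.09 among genes of FPKM at least 5, -0.0 with the block and -0.11 to 0.17 without 1 library. TBP, at 0.07, was at -0.11 with the GC and length offset and -0.03 among genes of FPKM at least 5. PLIN1, at 0.07, was at -0.23 against bare alloy replicate 1 alone, -0.03 with the block and -0.13 to 0.4 without 1 library. The cause of these reversals was not tested. Depth limits single genes under about 1 CPM, where 3 counts come to 0.0443 to 0.0545 CPM and counting error is not the only error.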
